A study of Mus musculus with 3 samples.

Results

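The cells described here were splenic CD4+ T cells that carried 5 or more UMIs (unique molecular identifiers, each standing for 1 captured RNA molecule) of the proliferation genes Mki67, Top2a, Cdk1, Birc5 and Ccnb2, summed within a cell, 24 h after stimulation through CD3 and CD28. They were chosen by that measured sum among barcodes with 4056 or more UMIs and under 15% mitochondrial UMIs in the 2 stimulated libraries. The rule found 781 members among 14846 cells that passed the filter in those libraries, and among 32505 barcodes in the whole series. Of these, 411 of 7602 cells came from the WT library and 370 of 7244 from the IFT20-KO library. The cells of the same filter with a marker sum of 0 (zero-sum cells) numbered 5317 in WT and 4343 in IFT20-KO, and the remaining 1874 and 2531 cells had a sum of 1 to 4.

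The study compared WT (Ift20 f/f) mice with mice that also carried a CD4 cre transgene (Ift20 f/f CD4 cre, called IFT20-KO), in which Cre under the Cd4 promoter deletes the floxed part of Ift20, a subunit of the intraflagellar transport machinery, in T cells. The labels gave the strain as C57BL/6 for all 3 libraries and the methods gave male mice aged 5 to 10 weeks, and the floxed allele was carried by both genotypes. Spleen cells were enriched for naïve CD4+ T cells with a magnetic kit, and live CD3+CD4+ cells were sorted. A library each was made of WT cells at 0 h in buffer, of WT cells at 24 h with 1 µg/mL anti-CD3 and 1 µg/mL anti-CD28, and of IFT20-KO cells given the same stimulation for 24 h. With 1 library per condition there was no replicate and no test was run. Every interval below is a 95% interval that covers counting error only, except the range after a list median. That range gives the medians of the genes' lower and upper interval ends and is not an interval of the median. The libraries held 37325332 UMIs (WT, 0 h), 117734032 UMIs (WT, 24 h) and 106459650 UMIs (IFT20-KO, 24 h).

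A naïve T cell rests outside the cell cycle and enters it many hours after activation. E2F factors first switch on cyclin E, the MCM helicase and the enzymes of DNA synthesis. Top2a, Cdk1 and Mki67 begin to build up while DNA is still being copied and peak in G2 and mitosis, whereas the B-type cyclins, Plk1 and Cdc20 belong to the entry into and exit from mitosis. Promoters of the later genes are known for CCAAT boxes and for the cell cycle homology element TTTGAA, and promoters of G1/S genes for E2F sites such as TTTCGCG and GGCGGGAA.

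The promoters of 3 genes are shown because they mark stages that the members could be in. They are those of Top2a, the marker that supplied the largest part of the sum, of Ccnb2, the marker with the fewest UMIs, and of Pclaf, a replication clamp partner that led the genes with 50 CPM or more when each was ranked by the smaller of its ratios in the 2 libraries. Each run is the RefSeq sequence from 250 bases before to 50 bases after the gene start (GRCm38.p6), read along the gene, with the CCAAT box, the element TTTGAA, the E2F site TTTCGCG and the other E2F site, GGCGGGAA, in capitals where they occur on either strand. None of these letters contains another, and a match is no evidence of binding.
Top2a, chr11:99024140-99024439, minus strand: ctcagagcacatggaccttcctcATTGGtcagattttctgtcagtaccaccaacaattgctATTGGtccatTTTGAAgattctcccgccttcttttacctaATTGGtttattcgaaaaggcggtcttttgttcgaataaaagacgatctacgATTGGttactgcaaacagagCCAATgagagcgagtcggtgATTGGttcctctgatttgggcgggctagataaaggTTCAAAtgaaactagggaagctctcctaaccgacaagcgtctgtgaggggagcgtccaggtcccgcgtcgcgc
Ccnb2, chr9:70421505-70421804, minus strand: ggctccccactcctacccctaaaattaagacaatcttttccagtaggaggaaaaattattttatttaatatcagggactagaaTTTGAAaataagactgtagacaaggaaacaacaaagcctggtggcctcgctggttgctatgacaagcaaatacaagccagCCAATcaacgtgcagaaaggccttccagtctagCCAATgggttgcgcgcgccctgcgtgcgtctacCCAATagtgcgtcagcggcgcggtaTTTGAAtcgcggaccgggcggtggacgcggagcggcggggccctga
Pclaf, chr9:65890073-65890372, plus strand: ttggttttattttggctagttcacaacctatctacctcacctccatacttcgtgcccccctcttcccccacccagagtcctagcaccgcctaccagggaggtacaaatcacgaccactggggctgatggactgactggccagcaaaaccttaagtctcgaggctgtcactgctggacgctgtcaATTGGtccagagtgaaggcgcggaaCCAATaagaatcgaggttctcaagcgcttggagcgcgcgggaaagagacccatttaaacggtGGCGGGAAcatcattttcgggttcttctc
The Top2a window held 6 CCAAT and 2 TTTGAA matches, the Ccnb2 window 3 and 2, and the Pclaf window 2 CCAAT matches and 1 GGCGGGAA. Among 27025 genes with a promoter, 37.9% held CCAAT, 18.1% TTTGAA, 0.844% TTTCGCG and 2.24% GGCGGGAA. Of the S-phase genes of the list distributed with Seurat, 31 of 43 had a promoter, and 22 of these held CCAAT, 5 TTTGAA, 5 TTTCGCG and 7 GGCGGGAA. Of the Seurat G2/M genes without the 5 markers, 42 of 49 had a promoter, and 32 held CCAAT, 28 TTTGAA, 1 TTTCGCG and 0 GGCGGGAA.

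The 5 markers are often read as marks of G2 and mitosis. Most members carried genes of G1/S and DNA replication beside Top2a and Cdk1, while Ccnb1 and Plk1, which act at mitosis, stood above the level of zero-sum cells at under 20 CPM. At such a level a member of median depth gives less than 1 UMI on average, so the share of cells with a UMI does not count the cells that express the gene. Top2a gave 45.6% of the marker UMIs of WT members and 42.0% of those of IFT20-KO members, and at least 1 Top2a UMI was found in 97.3% and 99.5% of the members. Ccnb2, the B-type cyclin of the rule, gave 1.23% and 2.15% of the marker UMIs and was found in 42 of 411 WT members (10.2%, 7.47 to 13.6) and 50 of 370 IFT20-KO members (13.5%, 10.2 to 17.4). Cdk1, the mitotic kinase that also acts in S phase, was found in 84.7% and 80.0% of members, Birc5, the survivin subunit of the chromosomal passenger complex, in 74.2% and 74.9%, and the proliferation antigen Mki67 in 56.9% and 65.4%. These values were used by the rule and are given as a description.

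Genes outside the rule were counted next. A UMI of Ccne1 (cyclin E1) or Cdc6 (which loads the MCM helicase) was found in 365 of 411 WT members (88.8%, 85.4 to 91.7) and 330 of 370 IFT20-KO members (89.2%, 85.6 to 92.2), against 14.9% and 18.8% of zero-sum cells. With all cells thinned to 4056 UMIs, Ccne1 alone was found in 25.3% of WT members and 2.65% of WT zero-sum cells, and in 25.7% and 3.68% in IFT20-KO. A UMI of Ccnb1, the B-type cyclin outside the rule, was found in 22.1% of WT and 23.5% of IFT20-KO members, against 2.22% and 2.14% of zero-sum cells. At least 20 UMIs of 25 genes of mitotic entry and exit were found in 34 WT members (8.27%, 5.80 to 11.4) and 28 IFT20-KO members (7.57%, 5.09 to 10.8), and in 0 of 5317 and 0 of 4343 zero-sum cells. Counts that include the rule's Ccnb2 are a description. With it, 3 or more UMIs of Ccnb1, Ccnb2, Plk1, Cdc20 and Aurka together were found in 14.1% and 12.97% of members, against 0.0564% and 0.115% of zero-sum cells, and 10 or more in 2 of 411 and 3 of 370 members. A UMI of Ccnb1 or Ccnb2 was found in 29.2% (24.8 to 33.9) and 33.8% (29.0 to 38.9) of members. Most of these cells also had Ccne1 or Cdc6, as did 88.8% and 89.2% of all members, so that overlap does not set them apart. Ccnb1 or Ccnb2 without Ccne1 or Cdc6 was found in 11 WT members (2.68%) and 6 IFT20-KO members (1.62%). The members are called marker-positive cells here, after the rule, and not G2/M cells.

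The summed S-phase list stood at 6729 CPM (the UMIs of a gene per 1000000 UMIs of the summed cells, not divided by gene length since a UMI tags 1 end of an RNA) in WT members and 7112 CPM in IFT20-KO members, and the G2/M list without the markers at 3720 and 3944 CPM. The list of 25 mitotic genes, which overlaps the G2/M list, reached 400 and 469 CPM. More S than G2/M UMIs were counted in 398 of 411 WT members (96.8%) and 358 of 370 IFT20-KO members (96.8%), against 66.3% and 79.1% of zero-sum cells and 85.2% and 89.0% of cells with a sum of 1 to 4. The 2 sums were made of different genes, so their ratio, 1.81 in WT and 1.80 in IFT20-KO, has no zero point of its own. As a scale, the 6 unstimulated cells that met the same rule had S, G2/M and mitotic sums of 4977, 13744 and 3397 CPM and a ratio of 0.362, with Ccnb2 in all 6.

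The mitotic and S lists, which hold none of the 5 markers, were higher at each larger step of the marker sum. Over sums of 0, 1 to 4, 5 to 9, 10 to 19 and 20 or more, the mitotic list stood at 62.6, 93.7, 216, 397 and 877 CPM in WT and at 81.0, 105, 271, 574 and 1147 CPM in IFT20-KO. The S list over the same steps went from 2455 to 7730 CPM in WT and from 2889 to 8632 CPM in IFT20-KO. Cells just outside and just inside the rule had close values. Those with a sum of 4 (100 WT and 130 IFT20-KO cells) held 171 and 176 mitotic CPM, and those with a sum of 5 (67 and 63 cells) held 153 and 210.5 CPM.

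**Figure D1:**
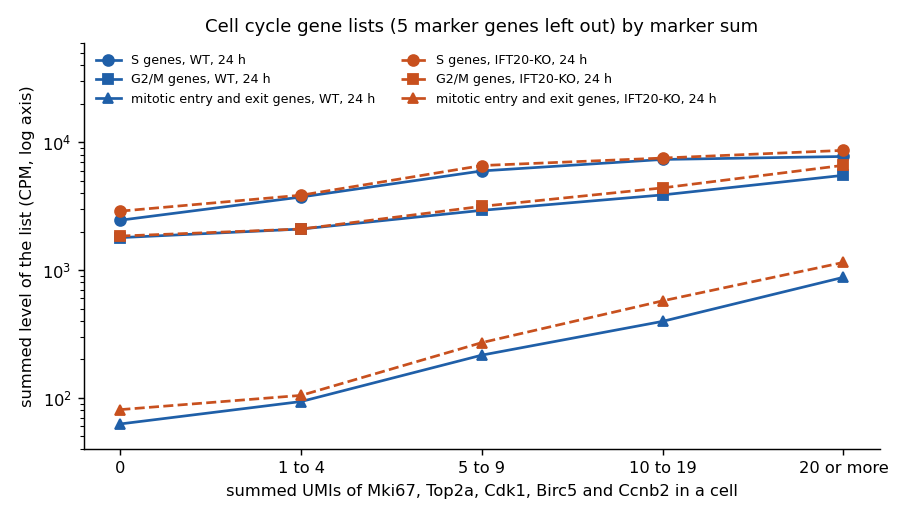
Summed CPM (log axis) of the S, G2/M and mitotic lists, with the 5 marker genes left out, in cells grouped by the marker sum, for the WT (solid, blue) and IFT20-KO (dashed, orange) libraries at 24 h. Each point is a sum over all cells of 1 step. The mitotic list went from 62.6 to 877 CPM in WT and from 81.0 to 1147 CPM in IFT20-KO, while the S list stayed the highest of the 3 at every step.

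Members had a higher median of UMIs per cell than zero-sum cells. The median WT member had 20201 UMIs and the median zero-sum cell 13218, and in IFT20-KO the medians were 17263.5 and 11119 UMIs. A fixed sum of raw UMIs is reached more easily by a deeper cell, and the share of members went from 0.759% (0.425 to 1.25) of WT cells with 8000 to under 12000 UMIs to 22.3% (18.7 to 26.3) of those with 24000 or more. In IFT20-KO it went from 1.02% (0.680 to 1.47) to 19.9% (14.3 to 26.5). In the shallowest step, 4056 to under 8000 UMIs, it was 1.84% (0.885 to 3.35) in WT and 1.37% (0.769 to 2.25) in IFT20-KO. The summed marker CPM, which is scaled to UMIs, also differed between steps. It went from 31.6 CPM in WT cells with 8000 to under 12000 UMIs to 137 CPM with 24000 or more. In IFT20-KO it was 47.6 and 104 CPM in these steps, and 156 CPM from 16000 to under 24000 UMIs. In both libraries it was higher in the shallowest step than in the next one. The parts of depth and marker level in the rise of the share were not tested. No doublet caller was run, the part of doublets among these cells was not tested, and without the 6% of cells with the most UMIs the shares were 4.32% and 4.17%.

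The share of members was 5.41% (4.91 to 5.94) in WT and 5.11% (4.61 to 5.64) in IFT20-KO, a log2 ratio of -0.08 (-0.29 to 0.12). At 0 h the same rule found 6 of 5263 WT cells, 0.114% (0.0418 to 0.248), at a median of 5233 UMIs per cell. No order of the genotypes can be read from these raw shares, since the filtered IFT20-KO cells were shallower (median 11716 against 13952 UMIs) and their marker level was higher (88.8 against 69.7 CPM). The IFT20-KO share was the higher with cells thinned and a sum of 2. It was the lower with the filter set at 2000 UMIs, at a log2 ratio of -0.40 (-0.59 to -0.22). With every filtered cell thinned to 4056 UMIs, a sum of 2 or more was found in 4.41% (3.96 to 4.89) of WT and 5.81% (5.28 to 6.38) of IFT20-KO cells. A sum of 5 or more was found in 0.750% (0.568 to 0.970) and 0.994% (0.778 to 1.25), a log2 ratio of 0.41 (-0.11 to 0.93) whose interval includes 0. Any marker UMI was found in 14.0% of thinned WT cells, 20.5% of thinned IFT20-KO cells and 1.67% of thinned unstimulated cells. Within depth steps, members made up 9.91% (8.66 to 11.3) of WT and 17.6% (15.5 to 19.9) of IFT20-KO cells with 16000 to under 24000 UMIs, while the intervals overlapped in the other 4 of the 5 steps from 4056 UMIs. The filter kept 73.7% of WT barcodes and 52.0% of IFT20-KO barcodes, and its part in the shares was not tested.

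**Figure D2:**
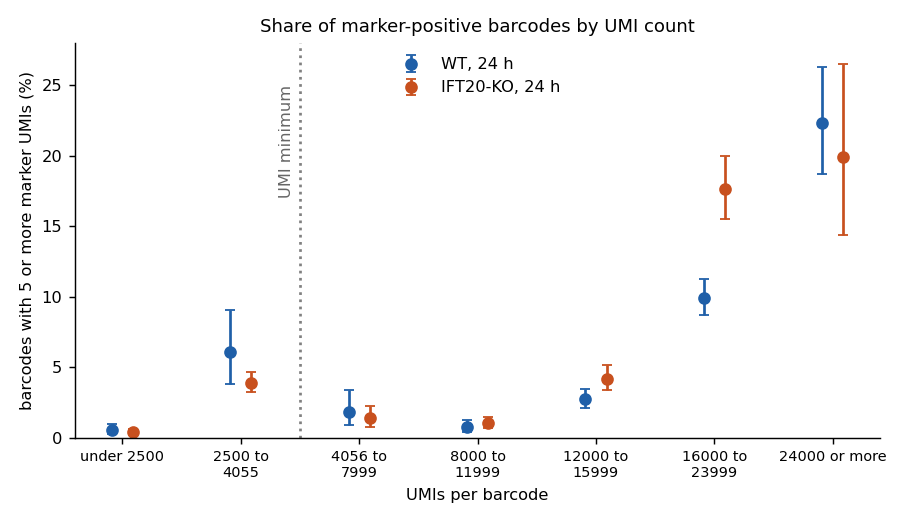
Share of barcodes with 5 or more marker UMIs (%) by UMIs per barcode in the WT and IFT20-KO libraries at 24 h, with 95% exact binomial intervals as bars and the UMI minimum as a dotted line. Among filtered cells the share stayed under 2% up to 12000 UMIs, and from 16000 to under 24000 UMIs it was 9.91% in WT and 17.6% in IFT20-KO.

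Against zero-sum cells of the same library, members carried more RNA of genes of G1/S, DNA replication and the later cycle, and few genes were 2-fold or more lower. Of 6923 genes with 10 CPM or more in either group of WT cells (markers left out), 317 were 2-fold or more higher in members, 4.58%, and 6 were 2-fold or more lower, 0.0867%. In IFT20-KO 300 of 7022 genes were higher, 4.27%, and 8 were lower, 0.114%. The median log2 ratio of all genes was 0.03 in WT and 0.04 in IFT20-KO. These genes travel with the markers that chose the cells, so the counts describe the members and are no independent finding.

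Genes of G1/S were among those higher in members. Ccne1 stood at 74.9 CPM in WT members against 7.26 in zero-sum cells, and at 68.5 against 9.34 CPM in IFT20-KO. E2f1, a transcription factor of G1/S genes, stood at 73.6 against 12.9 CPM and at 75.1 against 17.1 CPM. Cdc6 stood at 93.8 against 6.36 CPM and at 97.9 against 11.03 CPM. Of the 43 S-phase genes, 11 in WT and 8 in IFT20-KO reached 10 CPM in members alone and so had to be higher there. All 43 S-phase genes were higher in members of both libraries, by a median log2 ratio of 1.67 in WT and 1.48 in IFT20-KO (the medians of the gene intervals' lower and upper ends were 1.58 and 1.78, and 1.37 and 1.58). The MCM and origin licensing genes were higher in 19 of 19 cases with medians of 1.31 and 1.10, and the most abundant, Mcm6, a subunit of the replicative helicase, stood at 579 against 298 CPM in WT and 584 against 342 CPM in IFT20-KO. Of the 19 licensing genes, 5 in WT and 4 in IFT20-KO reached 10 CPM in members alone. At 0 h Mcm6 stood at 49.1 CPM, so it was already above the unstimulated level in cells without a marker UMI.

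Genes of DNA synthesis were also higher in members. Pclaf stood at 386 against 4.001 CPM in WT and 431 against 11.4 CPM in IFT20-KO, log2 ratios of 6.59 (6.42 to 6.77) and 5.25 (5.12 to 5.38). Rrm2, the regulated subunit of ribonucleotide reductase, stood at 296 against 7.15 CPM and at 331 against 14.5 CPM. Tyms, thymidylate synthase, stood at 258 against 31.3 CPM and at 267 against 41.3 CPM. The list of replication fork and nucleotide supply genes was higher in 29 of 29 genes in both libraries, by medians of 1.63 and 1.40. In WT, 1 of the 29 reached 10 CPM in members alone. Clspn, a mediator of the replication checkpoint, had log2 ratios of 4.81 and 3.91, and the histone chaperone Asf1b (3.19 and 3.002) was also among the 12 named as highest in both libraries.

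Genes of the later cycle had large ratios from low levels. Ccna2, the cyclin of S phase and G2, stood at 84.8 against 0.949 CPM in WT and 102 against 2.83 CPM in IFT20-KO. Fbxo5, which restrains the anaphase promoting complex until mitosis, stood at 63.7 against 1.49 CPM and at 78.3 against 2.59 CPM. Aurkb, the kinase of the chromosomal passenger complex, stood at 67.8 against 2.93 CPM and at 82.7 against 4.26 CPM, and Spc24, a kinetochore subunit, at 121 against 6.94 CPM and at 133 against 10.3 CPM. Genes that act at mitosis itself were also higher in members, at low levels. Ccnb1 stood at 13.7 against 1.60 CPM in WT and 16.7 against 1.89 CPM in IFT20-KO (log2 ratios 3.09 and 3.15). The kinase Plk1 stood at 10.8 against 0.366 CPM and 12.2 against 0.836 CPM, and Cdc20, an activator of the anaphase promoting complex, at 16.0 against 5.95 CPM and 19.3 against 6.97 CPM. Of the 25 mitotic genes, 16 reached 10 CPM in WT and 19 in IFT20-KO, and 15 and 18 of these reached it in members alone and so had to be higher there. The gene that reached it in both classes, Psrc1, a microtubule-associated p53 target, was lower in members (log2 ratios -0.49 and -0.36). At a marker sum of 10 or more its log2 ratio in IFT20-KO was 0.018.

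**Figure D3:**
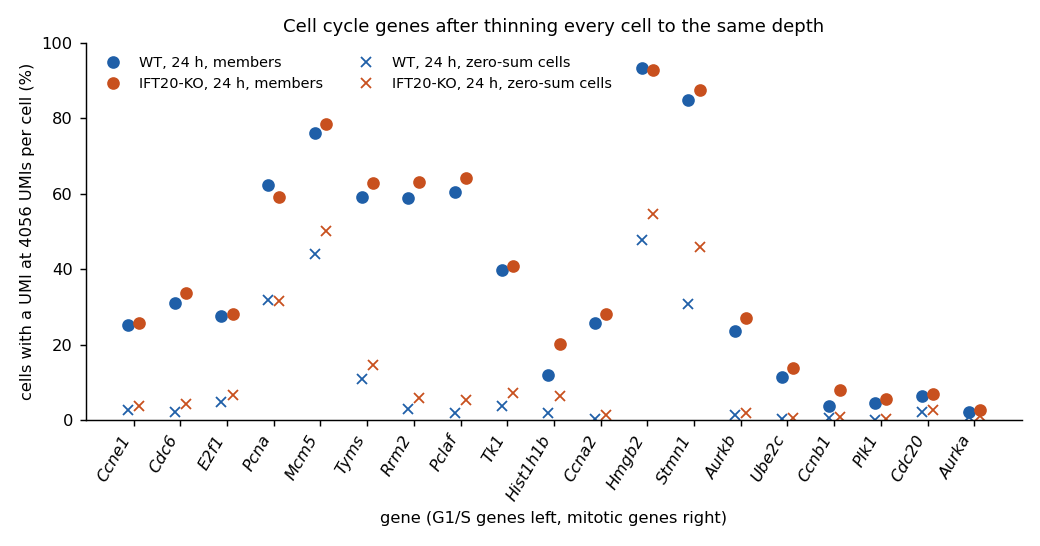
Percentage of cells with a UMI of each cell cycle gene after every cell was thinned to 4056 UMIs, for members (filled circles) and zero-sum cells (crosses) of the WT (blue) and IFT20-KO (orange) libraries, G1/S genes on the left and mitotic genes on the right. Pclaf was found in 60.3% of WT and 64.1% of IFT20-KO members, and Ccnb1 in 3.65% and 8.11%.

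At equal depth, Pclaf was found in 60.3% of WT members against 1.79% of zero-sum cells, and in 64.1% against 5.41% in IFT20-KO. Ccnb1 was found in 3.65% against 0.602% and in 8.11% against 0.875%. The share in zero-sum cells is the background for these values, and Ccnb1 was above it in members of both libraries.

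Regulators of the cycle showed a mixed pattern. Of the cyclins and CDKs, 14 of 16 genes were higher in members of each library (medians 1.14 and 1.15), and 6 of the 16 reached 10 CPM in members alone. Cyclin D2 (Ccnd2), which drives early G1, was the most abundant and slightly lower in members (802 against 911 CPM in WT, 746 against 845 CPM in IFT20-KO). Cyclin D3 (Ccnd3) was higher (301 against 136 CPM and 257 against 122 CPM). The repressor E2f8, itself an E2F target, and Mybl2, the B-Myb factor of late-cycle promoters, had ratios of 6.57 and 5.11 in WT and 4.79 and 4.24 in IFT20-KO. Among CDK inhibitors, Cdkn2c (p18) was higher in members (17.0 against 3.17 CPM in WT, 25.7 against 4.48 CPM in IFT20-KO), while Cdkn1b (p27) was lower (17.4 against 24.2 CPM and 26.0 against 33.4 CPM).

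The lower genes differed by less. Kdm5b, a histone H3K4 demethylase, stood at 25.1 against 60.9 CPM in WT and at 29.5 against 62.2 CPM in IFT20-KO, the only one of the 12 named lowest genes past 2-fold in both libraries. The others, with log2 ratios between -0.89 and -0.53, included S100a11 (a calcium-binding protein), Vsir (VISTA, a checkpoint receptor), Dusp6 (an ERK phosphatase), Cd27 (a TNF receptor family member of naïve and memory T cells), Sla (an adaptor that dampens antigen receptor signalling) and Zfp36 (an mRNA decay factor). The early activation antigen Cd69 stood at 180 against 298 CPM in WT and at 160 against 232 CPM in IFT20-KO.

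**Figure D4:**
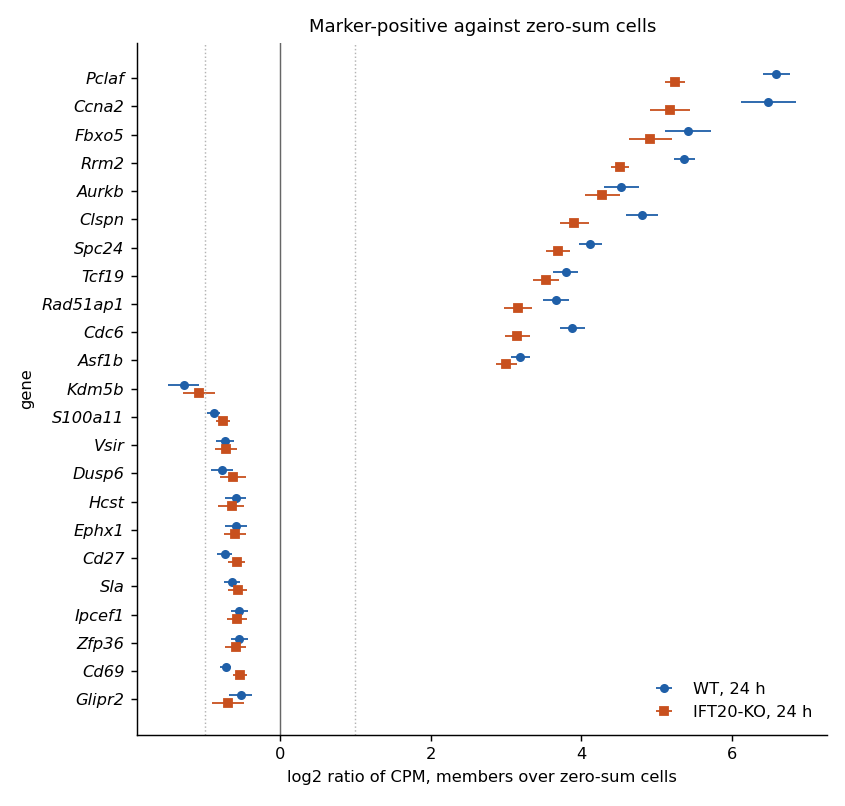
Log2 ratio of CPM in members over zero-sum cells for 11 of the 12 genes named as highest and the 12 named as lowest, in WT (circles) and IFT20-KO (squares) at 24 h, with 95% counting intervals as bars and dotted lines at 2-fold. Pclaf lies at 6.59 in WT and 5.25 in IFT20-KO, and all 12 lowest genes lie between -1.28 and -0.53.

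Activation and growth genes had medians near 0. The activation list had a median of 0.04 in WT and -0.06 in IFT20-KO, glycolysis 0.00 and 0.07, and ribosome biogenesis -0.06 and -0.01. The 10 markers of CD4 T cells were lower in members in 10 of 10 cases in both libraries, with medians of -0.30 and -0.24. Cd3e, a chain of the T cell receptor complex, stood at 702 against 944 CPM in WT and at 767 against 969 CPM in IFT20-KO, and all 411 WT and 370 IFT20-KO members had 3 or more UMIs of this list. Of 8 cytokines and chemokines with 10 CPM or more, 5 were higher and 3 lower in WT members, with a median of 0.36. In IFT20-KO members 6 were higher and 2 lower, with a median of 0.49. In WT, 1 of the 8 reached 10 CPM in zero-sum cells alone and so had to be lower in members. Of all genes, 3855 of 6923 were higher in WT members and 3952 of 7022 in IFT20-KO members. Lta stood at 246 against 145 CPM in WT and 148 against 103 CPM in IFT20-KO, and Ccl4 at 275 against 148 CPM and 310 against 142 CPM. Tnf stood at 86.9 against 89.1 CPM and 65.3 against 76.3 CPM. Il2 had log2 ratios of 0.09 in WT and 0.46 in IFT20-KO, of -0.57 and -0.64 against zero-sum cells reweighted to the members' UMIs, and of 0.67 and -0.25 at a marker sum of 10 or more. Myeloid and NK cell markers were near 0. The 10 myeloid markers summed to 2.73 CPM in WT members and 3.50 CPM in IFT20-KO members, with 8 and 7 of them at 0, and the 8 NK cell markers to 5.47 and 4.42 CPM. The 8 B cell markers summed to 60.9 CPM in WT members and 50.5 CPM in IFT20-KO members, against 37.1 and 38.2 CPM in zero-sum cells, with 4 of 8 at 0 in members of each library and Cd74 giving 58.5 and 47.7 CPM. At least 3 UMIs of this list were found in 16.3% and 11.4% of members, against 5.44% and 4.70% of the shallower zero-sum cells. The part of these cells in the results was not tested. The WT and IFT20-KO libraries shared 207 barcodes, and 0 of these were members in both.

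Within the members, the deleted gene checked the labels first. Ift20 stood at 67.8 CPM in WT members and 5.33 CPM in IFT20-KO members, a log2 ratio of -3.67 (-4.20 to -3.18), and at 79.9 and 6.95 CPM in zero-sum cells. A UMI of Ift20 was found in 24.8% of thinned WT members and 2.43% of thinned IFT20-KO members. Of 7017 genes, 6 were 2-fold or more higher in IFT20-KO members, 0.0855%, and 20 were 2-fold or more lower, 0.285%. The median log2 ratio was 0.02, and it was -0.19 when UMIs per cell were compared without scaling to the total, so ratios are given relative to all genes. Of 9 genes of the intraflagellar transport list with 10 CPM or more, 6 were higher and 3 lower. The filter fixed the direction of those that reached 10 CPM in 1 genotype alone, 2 in IFT20-KO and 1 in WT. Ift20 was the only one of the 9 past 2-fold, with Ift27 at 68.2 and 67.7 CPM and Ift52 at 25.3 and 23.9 CPM.

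Interferon-induced genes had the lowest median of the gene lists in IFT20-KO members. Of 35 genes on the list, 21 reached 10 CPM, 3 of them in WT alone, all 21 were lower, 8 of them by 2-fold or more, and the median log2 ratio was -0.81 (-1.005 to -0.65), against 0.02 for all genes. Ly6a (Sca-1), a surface protein of activated and memory T cells, stood at 262 CPM in WT members and 45.1 CPM in IFT20-KO members. Gbp2, a guanylate-binding GTPase, stood at 307 and 111 CPM, and Irf1, a transcription factor of the interferon response, at 116 and 52.1 CPM. Psmb8, an immunoproteasome subunit and the most abundant of the list, stood at 569 and 393 CPM, and Bst2 (tetherin) at 105 and 96.8 CPM with an interval that included 0 (-0.27 to 0.03). The zero-sum cells gave a median of -0.74 (-0.85 to -0.71) for the same 21 genes. On the activation list, Tbx21 (T-bet), the factor of type 1 helper cells, stood at 17.8 CPM in WT members. In IFT20-KO members it stood at 0.913 CPM, a level of few UMIs. Irf8, also on the activation list, stood at 69.1 and 30.8 CPM.

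The higher genes differed by less. Marcksl1, an actin-binding protein, stood at 154 CPM in WT members and 266 CPM in IFT20-KO members. Nrn1 (neuritin) stood at 86.2 and 142 CPM, the tetraspanin Cd81 at 85.7 and 141 CPM, and the splicing factor Mbnl1 at 177 and 277 CPM. All of these had ratios of 0.68 to 0.77 in zero-sum cells, near the 0.64 to 0.79 of members. The linker histones Hist1h1b (35.3 and 59.8 CPM) and Hist1h1e (54.1 and 87.7 CPM) and Cdca5 (sororin, which protects sister chromatid cohesion; 34.6 and 52.5 CPM) were also among the highest. All 10 tested replication-dependent histones were higher in IFT20-KO members, by a median of 0.49 (0.16 to 0.82), and 9 of 10 were higher in IFT20-KO zero-sum cells, by a median of 0.82 (0.68 to 1.01). Of all 7017 genes, 3798 were higher and 3219 lower in IFT20-KO members.

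**Figure D5:**
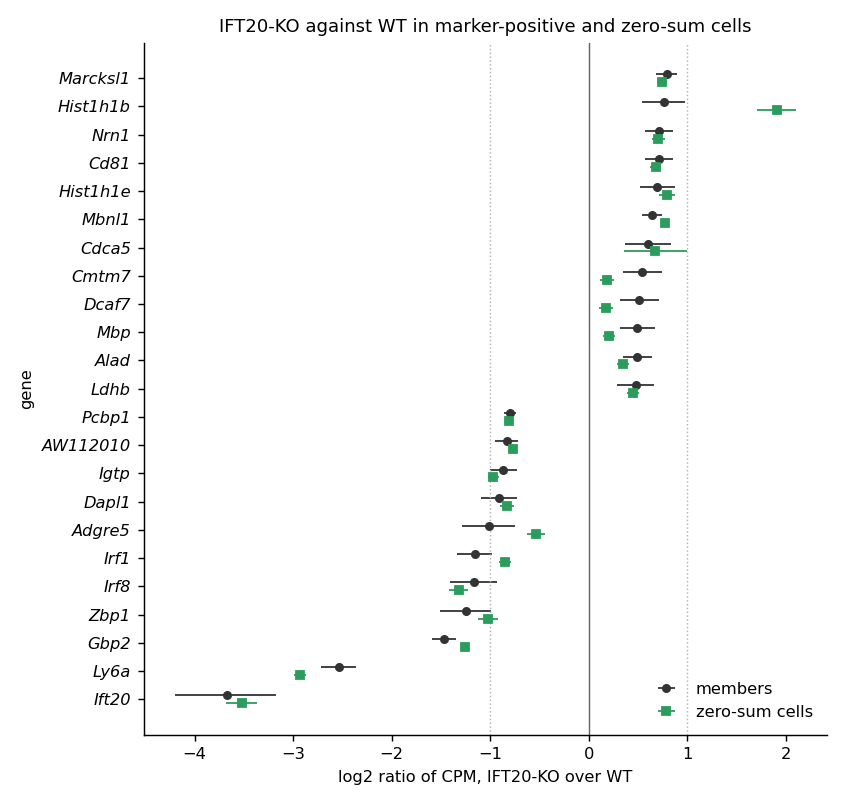
Log2 ratio of CPM in IFT20-KO over WT for the 12 genes named as highest and 11 of the 12 named as lowest within members, shown for members (black circles) and zero-sum cells (green squares), with 95% counting intervals as bars and dotted lines at 2-fold. Ift20 lies at -3.67 in members and -3.52 in zero-sum cells, and Hist1h1b at 0.76 and 1.91.

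The medians of the S, G2/M and mitotic lists were nearer to 0 between the genotypes within members than among zero-sum cells. Members of both libraries were held to the same marker sum, and genes of these lists travel with the markers. The part of that choice in the differences between the classes was not tested. The S list had a median log2 ratio of IFT20-KO over WT of 0.09 (-0.04 to 0.20) in members (-0.12 as UMIs per cell without scaling) and 0.28 (0.20 to 0.38) in zero-sum cells. The G2/M list had 0.18 (-0.045 to 0.43) in members (-0.026 as UMIs per cell) and 0.38 (0.10 to 0.49) in zero-sum cells. The mitotic list had 0.29 (-0.09 to 0.63) and 0.58 (0.23 to 0.98), and the ranges of the G2/M and mitotic lists overlapped between the classes. In members, 3 of 19 mitotic and 2 of 40 G2/M genes reached 10 CPM in IFT20-KO alone and so had to be higher. In members the mitotic median was 0.55 without the 6% of cells with the most UMIs, 0.15 with members chosen after thinning and 0.08 as UMIs per cell. The summed UMIs of the G2/M list had the other order, with a log2 ratio of 0.085 (0.061 to 0.11) in members and 0.041 (0.029 to 0.053) in zero-sum cells. Summed S UMIs had 0.080 (0.062 to 0.098) and 0.235 (0.225 to 0.245), and summed mitotic UMIs 0.23 (0.16 to 0.30) and 0.37 (0.31 to 0.43). Of the tested genes, 34 of 43 S, 34 of 40 G2/M and 17 of 19 mitotic genes were higher in IFT20-KO members, against 3798 of all 7017. Cyclins and CDKs had medians of 0.06 and 0.09. Pclaf differed by a log2 ratio of 0.16 (0.09 to 0.23) in members (-0.045 as UMIs per cell, -0.13 with members chosen after thinning) and 1.51 (1.30 to 1.71) in zero-sum cells, a difference of -1.35 (-1.56 to -1.13). Ccna2 had 0.27 (-0.18 with members chosen after thinning) and 1.57, Rrm2 0.16 (-0.043 as UMIs per cell, -0.017 with members chosen after thinning) and 1.02, and Hist1h1b 0.76 and 1.91. The zero-sum cells of IFT20-KO were the shallower ones (median 11119 against 13218 UMIs), and the part of depth in who fell into that class was not tested.

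Genes of the pathways that the study examined were compared between members. The PI3K-AKT-mTOR list had a median of 0.00 (-0.25 to 0.26), with 11 of 21 genes higher and 10 lower. Of these 21, 2 reached 10 CPM in IFT20-KO members alone and so had to be higher. The glycolysis list had a median of -0.11 (-0.26 to -0.04), with 16 of 19 genes lower and 0 past 2-fold. Of these 19, 2 reached 10 CPM in WT members alone and so had to be lower. In zero-sum cells 18 of 19 were lower, by a median of -0.14 (-0.18 to -0.12). Of the lymphokines, Il2 stood at 119 CPM in WT members and 88.8 CPM in IFT20-KO members, a log2 ratio of -0.43 that was -1.71 at a marker sum of 10 or more, -0.96 with members chosen after thinning and -0.15 against reweighted WT members. Tnf stood at 86.9 and 65.3 CPM and Lta at 246 and 148 CPM. Ccl3 (49.8 and 57.2 CPM) had an interval that reached 0 and Ccl4 (275 and 310 CPM) had a log2 ratio of 0.17 by CPM, -0.035 as UMIs per cell, -0.80 at a marker sum of 10 or more and -1.20 with members chosen after thinning.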

How the data were processed

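Single-cell RNA-seq of 3 libraries was analysed, 1 per condition. The authors deposited raw UMI counts per gene and barcode, made with Cell Ranger (3.1.0 in the matrix headers) on mm10. The labels name a 5′ kit and the methods a 3′ kit. The 5 markers, the filter, the 33 gene lists and the comparisons were chosen with earlier results of these data known.

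UMIs were summed over cells of a class and given as CPM with exact Poisson intervals, log2 ratios with exact binomial intervals and shares with Clopper-Pearson intervals, all at 95%. A count of 0 was set to a floor of 3 counts per class. Called genes had 10 CPM or more in either class and a 2-fold difference. Named genes had 50 CPM or more in either class: the 12 highest and 12 lowest, the same way in both libraries for members over zero-sum cells, without receptor segments. Genes of the fixed lists were named by role. Some genes are not reported here. Thinning drew UMIs without replacement with a fixed seed. The interval method was tested on simulated data, where 95.3%, 95.3% and 95.6% of known ratios fell inside. The simulated counts were Poisson draws from pooled means, so they check the calculation only and hold no variation between cells. Cells are not replicates, and free RNA was not removed. Python 3.11.15, numpy 2.4.6, scipy 1.17.1 and pandas 2.3.3 were used. Alternatives changed the filter, the marker rule, depth, scaling and expression minimum.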

Additional observations from a re-analysis of the deposited data

Results flagged for a closer look

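At 0 h, 6 of 5263 filtered cells (0.114%) met the rule although the library was not stimulated. They had between 6610 and 29603 UMIs and marker sums of 12 to 95, and Ccnb2 was found in 6 of 6.

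Barcodes below the UMI minimum with under 15% mitochondrial UMIs, which were used in the values from 2000 UMIs, in those thinned to 1500 UMIs and in the plot of shares by depth, also reached a marker sum of 5. They numbered 31 of 2301 in WT (1.35%, 0.917 to 1.91), 127 of 6676 in IFT20-KO (1.90%, 1.59 to 2.26) and 0 of 2768 at 0 h. Their median mitochondrial share was 11.99% in WT and 8.24% in IFT20-KO, against 1.33% and 1.14% in members, and their mitotic list stood at 1123 and 863 CPM, against 400 and 469 CPM in members. A sum of 5 is a larger fraction of the UMIs of a shallow barcode. The rule therefore picked a higher marker fraction there, and the contrast in the mitotic list is a description.

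Irf1 was higher in members than in zero-sum cells in WT (0.11, 0.02 to 0.21) and lower in IFT20-KO (-0.19, -0.36 to -0.03). Against zero-sum cells reweighted to the members' UMIs it was higher in both (0.37 and 0.12). The difference between the libraries was not tested.

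Ccl4 was higher in IFT20-KO than in WT among members (0.17, 0.08 to 0.26) and lower among zero-sum cells (-0.056, -0.10 to -0.01). Among members it was at -0.035 as UMIs per cell, -0.80 at a marker sum of 10 or more and -1.20 with members chosen after thinning. The difference was not tested.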

How the results depend on the processing

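No paired analysis was possible because each condition had 1 library. With 1 library per condition, no alternative leaves out a replicate either. In total 1659 values were recomputed. Of 192 gene values, 172 kept their sign under every alternative tried for them and 20 changed it under at least 1, 8 of the 175 whose counting interval excluded 0 and 12 whose interval reached 0. Depth limits the low genes most, since counting intervals widen as UMIs fall, and WT members held 8412504 UMIs and IFT20-KO members 6568451. Where no construction of the alternative shows it, the cause of a shift was not tested.

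The share of members in WT and IFT20-KO was 8.96% and 9.66% at a sum of 3 or more, 2.59% and 2.19% at 10 or more, and 4.32% and 4.17% without the 6% of cells with the most UMIs. It was 3.05% and 2.75% without Top2a in the sum, 4.29% and 4.13% without Cdk1, 4.83% and 4.43% without Birc5, and 4.56% in IFT20-KO without Mki67. In IFT20-KO it was 3.92% from 2000 UMIs and 5.77% from 8000 UMIs. Thinned to 4056 UMIs it was 0.750% and 0.994% at a sum of 5 and 4.41% and 5.81% at a sum of 2, and thinned to 1500 UMIs, with barcodes below the usual minimum added (9339 and 13904 cells), 2.24% and 3.56% at a sum of 2. The log2 ratio of the shares was -0.40 from 2000 UMIs and, in the order of the 3 thinned settings, 0.41, 0.40 and 0.67. The percentage of members with more S than G2/M UMIs was 93.9% and 92.2% after thinning.

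For members over zero-sum cells, the genes 2-fold higher and lower numbered 102 and 1 (WT) and 96 and 1 (IFT20-KO) from 50 CPM, and 750 and 75 and 675 and 83 from 1 CPM, where more genes were counted. The lower genes numbered 20 and 24 at a sum of 10 or more and 13 in WT without the deepest 6%. In the order WT and IFT20-KO, the G2/M list had a median of 2.15 and 1.98 from 10 CPM and a mean of 2.46 and 2.32. Of its tested genes, 20 of 38 and 21 of 40 reached 10 CPM in members alone and so had to be higher there. Its median was 0.92 and 0.88 from 50 CPM and 2.58 and 2.34 at a sum of 10. In IFT20-KO it was 2.14 by per-cell fractions and 2.12 without the deepest 6%. The mitotic list had 1 gene from 50 CPM, at 4.53 and 4.28, and its WT median, 3.70 from 10 CPM, was 4.18 from 1 CPM, 4.36 at a sum of 10 and 3.096 without the deepest 6%. The S list mean was 2.13 and 1.79, and its WT median 1.49 against zero-sum cells reweighted to the members' UMIs. In IFT20-KO, Il2 was at -0.64 and Irf1 at 0.12 against reweighted cells, and Il2 at -0.25 and Psrc1 at 0.018 at a sum of 10.

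For IFT20-KO over WT in members, the genes 2-fold higher and lower numbered 0 and 7 from 50 CPM, 208 and 174 from 1 CPM, 29 and 42 at a sum of 10, and 290 and 188 when members were chosen after thinning, which left 57 WT and 72 IFT20-KO cells. Without the deepest 6% 13 were higher, and 34 were lower against reweighted WT members. As UMIs per cell without scaling, 2 were higher and 39 lower, and the median of all genes moved to -0.19, of the S list to -0.12, of the interferon list to -1.01 and of glycolysis to -0.31. On that scale Pclaf was at -0.045, Rrm2 at -0.043 and Ccl4 at -0.035. With members chosen after thinning, Ccna2 was at -0.18, Pclaf at -0.13, Fbxo5 at -0.10, Rrm2 at -0.017 and Ccl4 at -1.20, and Ccl4 was at -0.80 at a sum of 10.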
